A study of Homo sapiens with 6 samples.

Results

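The genes described here are the 40 members of a list built around feedback on ERK signalling. They are dual specificity phosphatases (DUSP), Sprouty and SPRED inhibitors, and early growth response (EGR), ETS (ETV), PHLDA, IER and ZFP36 genes. Not all of them restrain ERK, since some carry its response onward and some phosphatases are directed at JNK and p38. The members were measured in EJ cells, a human bladder cancer line that carries an activated HRAS allele. The cells were transfected with a FOXA1 construct or with an empty plasmid. A member was read from the arrays through probe sets whose annotation gave a single symbol, that of the member, and the probe set with the highest mean log2 signal over the 6 arrays was taken. In this way 38 of the 40 members were read, through 87 probe sets, out of 19775 genes. EGR2, which the study lists among its changed transcripts, was named by no probe set in the annotation used and is not analysed here. DUSP13 was found only under its later symbol DUSP13B and is given separately.

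The 6 HG-U133 Plus 2.0 arrays, which measure transcripts by hybridisation to short probes, were 3 of cells labelled FOXA1 and 3 of cells labelled as carrying empty pUC19. Both groups were grown in DMEM with fetal calf serum and transfected with plasmid DNA with Lipofectamine, and total RNA was hybridised. The study's methods describe no sorting of the cells, so that transfected and untransfected cells were measured together. The study's methods state that the transfections were done in triplicate. The labels do not say that replicates were separate cultures, and p-values then measure only the spread between these arrays. The study's methods give pcDNA3 as the vector that carried FOXA1. They do not name the empty vector of the control, which the labels give as pUC19. As labelled, the vector differed between the groups, and its effect cannot be told apart from that of FOXA1.

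ERK is switched off by phosphatases that remove phosphate from its activation loop, and several of these, DUSP1, DUSP4, DUSP5 and DUSP6 among them, are themselves transcribed in response to ERK. Sprouty and SPRED proteins act further up, where receptors pass the signal to RAS and RAF. EGR and ETV factors are transcribed within minutes to hours of ERK activation and carry the response to other genes, and the ZFP36 proteins bind AU-rich sequences of short-lived mRNAs and speed their decay. Cells with an activated RAS allele often hold part of this feedback switched on.

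FOXA1, the gene introduced, was read by a pair of probe sets. The brighter gave signals of 38.9, 34.8 and 31.9 in FOXA1 transfected arrays and 21.8, 24.4 and 21.0 in control arrays, a log2 difference of 0.65 ± 0.23 (SE, n = 3 and 3; limma adjusted p = 0.307). Its groups did not overlap, and 12.5% of all genes were likewise higher without overlap. The dimmer, under the median signal, gave a difference of -0.54. These are transcript signals, and FOXA1 protein was not measured here. The study checked FOXA1 by western blot in a part of the transfected cells, and its supplement shows triplicates of both groups. All signed values below are FOXA1 transfected minus control as labelled. The study lists DUSP14, and the ERK responsive genes IER3 and TNFAIP3, at the same probe sets among its changed transcripts with the opposite sign, and NR4A2 with the opposite sign at another probe set. The direction given here rests on the labels. The median signal of an array was 12.3 to 17.5. As a gauge of RNA integrity, the 3′ control probe set of ACTB was divided by its 5′ one, which gave 2.37 ± 0.228 (SD) in FOXA1 transfected and 1.73 ± 0.188 in control arrays (exact permutation p = 0.1, the smallest that 3 against 3 arrays allow), and for GAPDH 0.920 ± 0.0217 and 0.899 ± 0.00926. The part of this difference in the results below was not tested. KRT18, a keratin of simple epithelia, and VIM, a filament of mesenchymal and poorly differentiated cells, were bright in every array. Of the other 6 epithelial markers measured, KRT8 and KRT7 had mean signals of 29.4 and 24.2, KRT7 being higher in FOXA1 transfected arrays without overlap (0.37; adjusted p = 0.650), and KRT5, KRT19, CDH1 and EPCAM lay under the median signal. Of the 14 measured markers of other cell types, 10 lay under the median signal, and 1 gave groups without overlap. Since bulk RNA was measured, fewer cells of a type and less RNA per cell cannot be told apart.

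No member passed limma at an adjusted p of 0.05 in either direction. Over all 54613 probe sets tested, 21 passed as higher (0.0385%) and 11 as lower (0.0201%). At an unadjusted p of 0.05, 4 of 38 members passed (DUSP7, DUSP10, DUSP14 and EGR4), or 10.5%, beside 14.6% of all genes. The 3 FOXA1 transfected arrays all lay above the 3 control arrays for 4 members, DUSP14, SPRY1, EGR4 and ZFP36L2 (10.5%), where 12.5% of all genes did so. No member lay below in all 3 arrays, where 7.25% of all genes did. Among the 23 members with a mean signal above 100, a level chosen after the values were seen, 2 were higher and none lower without overlap, beside 14.4% and 14.5% of the genes above that level. These shares lay near or under the background. Median centring of the arrays moved the median difference of all genes from 0.07 to -0.11, and under it no member was higher and 1, PHLDA2, was lower without overlap.

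The members' differences were small. Their median was 0.03 on the log2 scale, beside 0.07 for all genes. Of the members 23 lay above 0 (60.5%) and 15 below, and of all genes 59.2% lay above 0. The median size of a difference, without its sign, was 0.179 in members and 0.243 in all genes. Of the 38 members 7 lay at or under the median signal, and of the 19775 genes 7680 did. Among those with a mean signal above 100, the median size was 0.149 in members and 0.128 in all genes. The 95% interval of the difference stayed within 1.5-fold in either direction for 21 members and within 2-fold for 29. Of the other 9, 2 were EGR1 and EGR4 and 7 were dim. DUSP2 and DUSP23 lay under the 20th percentile of all signals (3.5), and DUSP4, DUSP8, DUSP9, DUSP26 and EGR3 under the median (13.5). For these 7 the intervals held a change of 2-fold, which was not detectable.

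**Figure D1:**
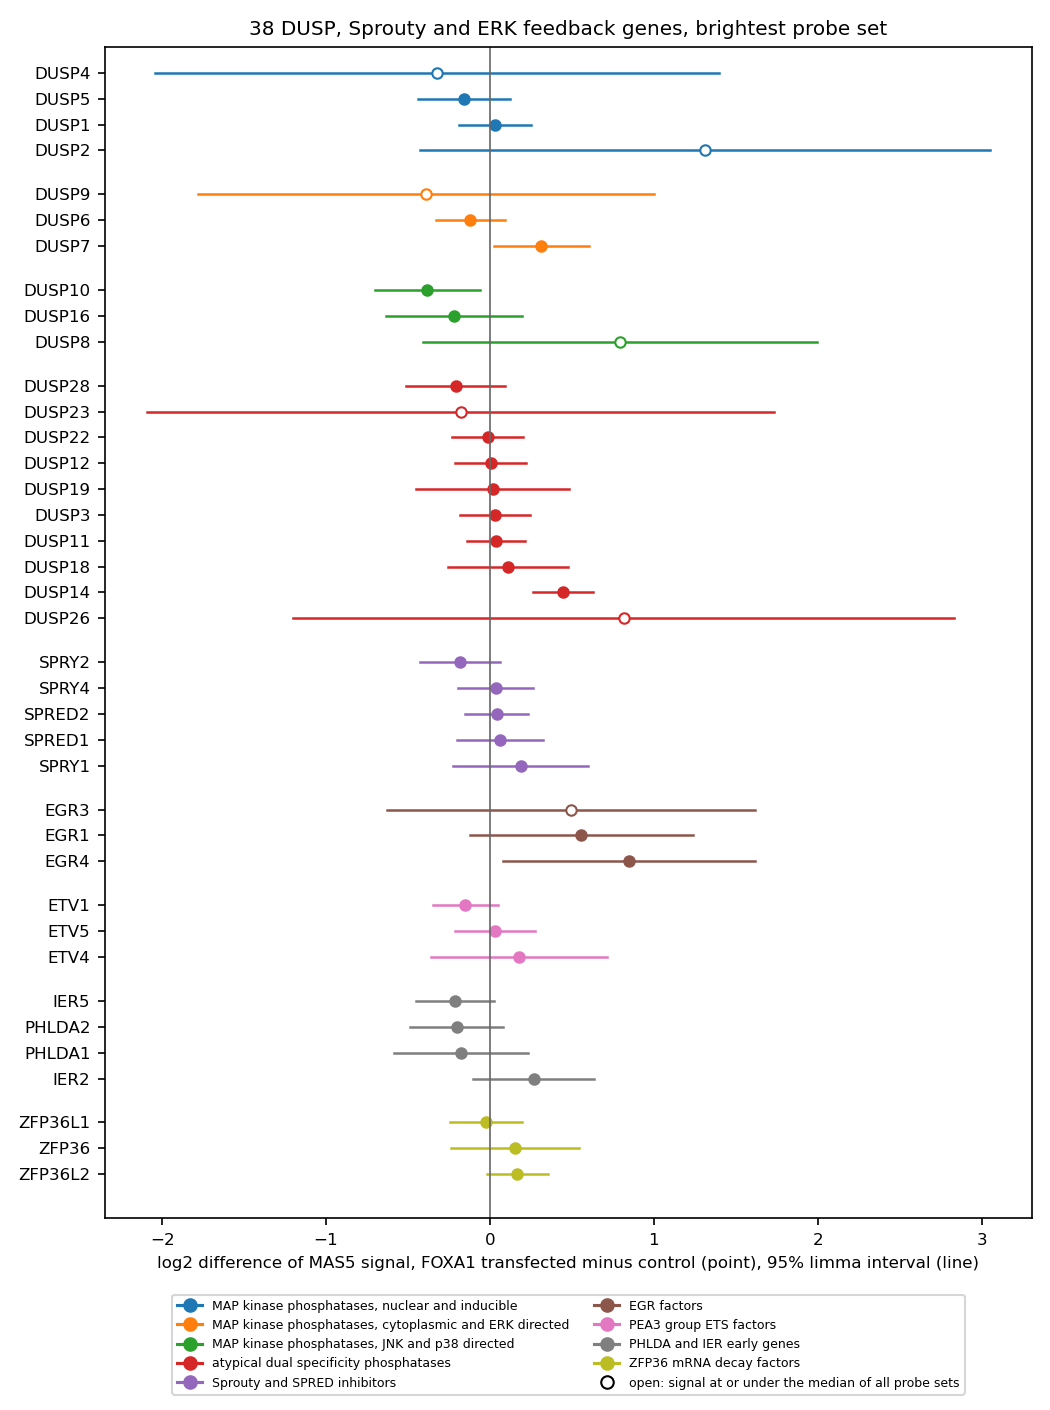
Log2 difference of MAS5 signal, FOXA1 transfected minus control, for the 38 members at their brightest probe set, by role. Points are differences and lines the 95% limma intervals. Open points are members at or under the median signal, and these have the widest intervals. DUSP14 lies at 0.45.

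Of the inducible nuclear MAP kinase phosphatases, DUSP1, DUSP2, DUSP4 and DUSP5, 2 lay above 0 and 2 below, and none passed. DUSP1, which acts on p38, JNK and ERK in the nucleus, gave 728.8, 891.7 and 721.1 in FOXA1 transfected and 756.5, 823.8 and 704.8 in control arrays. The groups overlapped, and the log2 difference was 0.03 (limma adjusted p = 0.940). After median centring of the arrays it was -0.15. DUSP5 gave a difference of -0.16 (adjusted p = 0.684).

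Of the phosphatases that hold ERK in the cytoplasm, DUSP6, DUSP7 and DUSP9, DUSP6 gave 979.2, 911.9 and 876.2 in FOXA1 transfected and 1096.3, 1051.7 and 869.9 in control arrays. The log2 difference was -0.12, with a 95% interval of -0.33 to 0.09, and the lowest array was a control. Over the alternatives it ran from -0.30 after median centring to -0.05 without control replicate 1, and it was -0.22 without control replicate 3. Its other probe sets read -0.14 and -0.15. DUSP7, a close relative, gave 127.2, 144 and 151.1 against 131.6, 99.2 and 110.2, a difference of 0.31 ± 0.13 (SE; adjusted p = 0.402) in groups that overlapped.

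Of the phosphatases directed at JNK and p38, DUSP8, DUSP10 and DUSP16, DUSP10 gave 148.3, 180.3 and 131.7 in FOXA1 transfected and 178.0, 238.7 and 183.6 in control arrays. The FOXA1 transfected array at 180.3 lay above the lowest control array, and the others below every control. The difference was -0.38 ± 0.15 (SE; adjusted p = 0.350), and -0.25 without control replicate 2. Its second probe set gave -0.36 with no overlap of the groups. DUSP16 gave -0.22. DUSP8 gave 0.79, at signals between 3.9 and 17.5.

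Of the 10 atypical dual specificity phosphatases, which lack the kinase-binding domain of the classical group, 7 differences were positive and 3 negative (median 0.02). DUSP12, which has a zinc-binding domain, gave 388.9, 421.8 and 424.0 in FOXA1 transfected and 396.3, 374.3 and 465.0 in control arrays and a difference of 0.00 (95% interval -0.21 to 0.22). DUSP14, a phosphatase that also acts on signalling in T cells, gave the lowest adjusted p of the members. Its signals were 461.7, 478.0 and 437.8 in FOXA1 transfected arrays and 327.2, 329.7 and 354.1 in control arrays (459 ± 20.2 against 337 ± 14.9, SD, n = 3 and 3). The 2 groups lay apart by more than their spread. The log2 difference was 0.45 ± 0.08 (SE; 95% interval 0.27 to 0.63; limma adjusted p = 0.0941). After median centring the difference was 0.26, and with probe sets at or under the median signal left out of the test the adjusted p was 0.0438. Over the 16 alternatives the adjusted p ran from 0.0438 to 0.634. A single probe set reads this gene.

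A window of 300 bases around the gene start, 250 before and 50 after, was taken from RefSeq (GRCh38.p14) for the 30 members that had one. Both strands were searched for the CArG box, which serum response factor binds, the ETS core GGAA, the cAMP response element core TGACG and the FOXA core TGTTTAC. Below, capitals mark matches of the CArG box, the cAMP response element core or the FOXA core on either strand. DUSP14 is shown because it had the lowest adjusted p of the members, and EGR1 and EGR4 because they are the EGR factors read above the median signal.
DUSP14, chr17:37489641-37489940, plus strand: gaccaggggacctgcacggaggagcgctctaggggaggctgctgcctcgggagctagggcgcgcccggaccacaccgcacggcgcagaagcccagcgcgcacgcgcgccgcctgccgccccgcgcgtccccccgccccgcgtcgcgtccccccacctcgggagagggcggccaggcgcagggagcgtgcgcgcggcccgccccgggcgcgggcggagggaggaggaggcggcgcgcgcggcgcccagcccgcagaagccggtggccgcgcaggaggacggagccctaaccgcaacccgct
EGR1, chr5:138465229-138465528, plus strand: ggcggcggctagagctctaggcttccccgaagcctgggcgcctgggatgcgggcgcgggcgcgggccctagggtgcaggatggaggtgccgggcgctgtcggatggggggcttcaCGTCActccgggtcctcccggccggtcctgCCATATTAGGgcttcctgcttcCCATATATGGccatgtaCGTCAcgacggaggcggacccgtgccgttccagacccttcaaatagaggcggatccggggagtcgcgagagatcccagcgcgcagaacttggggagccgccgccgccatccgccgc
EGR4, chr2:73293499-73293798, minus strand: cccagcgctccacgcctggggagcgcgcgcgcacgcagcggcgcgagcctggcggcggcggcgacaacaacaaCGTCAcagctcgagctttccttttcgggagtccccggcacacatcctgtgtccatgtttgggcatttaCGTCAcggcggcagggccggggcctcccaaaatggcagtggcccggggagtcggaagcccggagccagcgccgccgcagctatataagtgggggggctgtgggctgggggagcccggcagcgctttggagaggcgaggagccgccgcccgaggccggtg
The 30 members had 46 windows in all, since some have several starts. The CArG box was found in 2 of the 46, those of EGR1 and EGR2, and in 1.29% of the 35116 windows of all genes. In EGR1 it lay at bases 146 to 155 and 168 to 177 of the window, with the cAMP response element core at bases 116 to 120 and 185 to 189. An ETS core match of EGR1 overlapped its second CArG box by 1 base. EGR4 held the cAMP response element core at bases 74 to 78 and 142 to 146. This core was found in 17 of the 46 windows and in 24.6% of all windows, the ETS core in 42 of the 46 and in 95.5%, and the FOXA core in 2 of the 46, both of DUSP11, and in 3.42%. The DUSP14 window held none of the 4. A match is a description of these letters and no evidence of binding.

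Of the Sprouty and SPRED inhibitors, 4 of 5 lay above 0, by at most 0.19, and none passed. SPRY1 gave 40.6, 38.1 and 40 in FOXA1 transfected and 32.4, 35.3 and 36.7 in control arrays. The groups did not overlap, but the log2 difference of 0.19 ± 0.19 (SE) gave an adjusted p of 0.756 by limma, and the difference was 0.0044 after median centring and 0.11 after quantile normalization. SPRY2, which binds GRB2 and limits RAS activation, gave 1080.6, 991.4 and 923.0 in FOXA1 transfected and 1122.0, 1327.1 and 972.1 in control arrays, a difference of -0.18 (adjusted p = 0.577) in groups that overlapped. It was -0.07 without control replicate 2, -0.29 without control replicate 3 and -0.37 after median centring. SPRY4, SPRED1 and SPRED2 gave differences of 0.03, 0.06 and 0.04.

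The 3 EGR factors read here, zinc finger activators, all gave positive differences at the brightest probe set (median 0.56), and none passed. EGR1 gave 1105.7, 1973.7 and 2333.1 in FOXA1 transfected and 738.3, 1171.9 and 1844.2 in control arrays. The groups overlapped, and in each group the array numbered 1 was the lowest. The difference was 0.56 ± 0.31 (SE; adjusted p = 0.537), and it was 0.23 without control replicate 1, 0.34 without FOXA1 transfected replicate 3, 0.88 without FOXA1 transfected replicate 1 and 0.89 without control replicate 3. The other EGR1 probe sets gave 0.32 and 0.58, in groups that overlapped. The array numbered 1 was also the lowest of each group for FOS, another early gene, which read 59, 156.6 and 154.2 against 62.4, 140.5 and 204.5. EGR4 gave 21.1, 25.4 and 32.2 in FOXA1 transfected and 13.5, 10.4 and 21.0 in control arrays. The nearest arrays of the groups read 21.1 and 21.0, and the difference was 0.85 ± 0.35 (SE; adjusted p = 0.391). It ran from 0.45 with a pseudocount of 16 to 1.12 without control replicate 3. The other EGR4 probe sets gave 0.59, without overlap, and -1.04, at a mean signal of 7.77 and in groups that overlapped. EGR3 gave 0.50 at signals between 8.1 and 28.8.

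**Figure D2:**
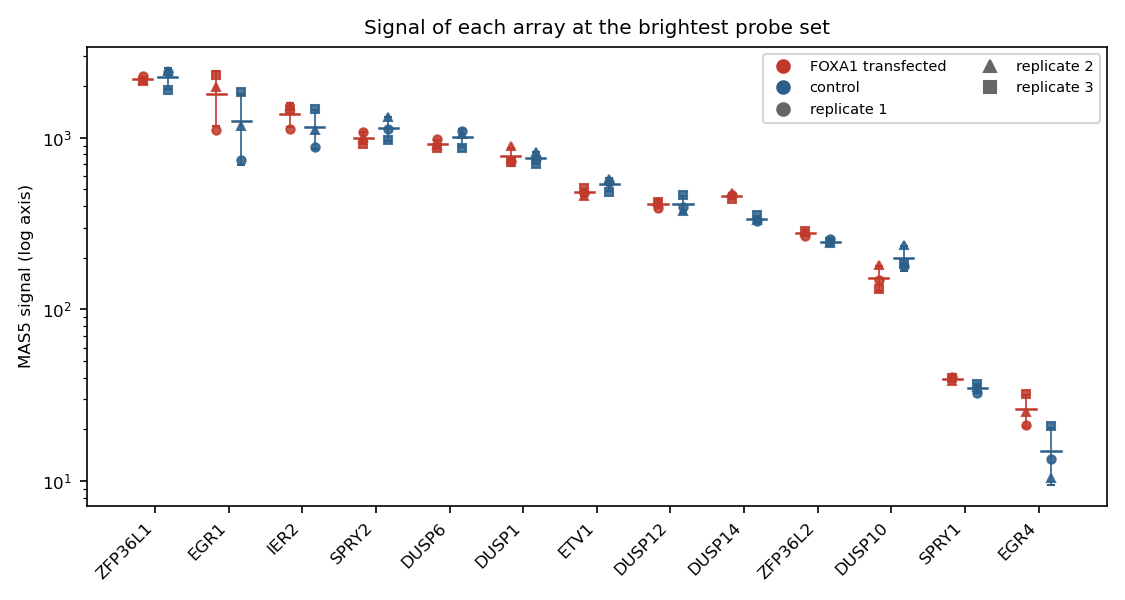
MAS5 signal (log axis) of the 13 members that the rule for named members chose, at the brightest probe set. Each symbol is an array, its shape gives the replicate number, and bars give the mean ± SD of 3 arrays. The 3 FOXA1 transfected arrays lie above the 3 control arrays for DUSP14, ZFP36L2, SPRY1 and EGR4, and EGR1 spreads between 738.3 and 2333.1.

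The ETV factors ETV1, ETV4 and ETV5, ETS activators that ERK phosphorylates, gave differences of -0.15, 0.18 and 0.03. ETV1 read 476.4, 460.7 and 506.4 in FOXA1 transfected and 548.9, 572.8 and 482.0 in control arrays (adjusted p = 0.572), in groups that overlapped, and its difference ran from -0.33 after median centring to -0.10 without control replicate 2.

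Of the PHLDA and IER early genes, 1 lay above 0 and 3 below. IER2 gave 1123.7, 1525.5 and 1473.6 in FOXA1 transfected and 882.8, 1112.4 and 1479.5 in control arrays, with the array numbered 1 lowest in each group and a difference of 0.27 (adjusted p = 0.596). It was 0.08 after median centring, 0.09 without control replicate 1, 0.40 without FOXA1 transfected replicate 1 and 0.46 without control replicate 3. PHLDA1, PHLDA2 and IER5 gave -0.18, -0.20 and -0.21. PHLDA1, whose protein promotes and restrains cell death in different settings, is described below by probe set.

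Of the ZFP36 mRNA decay factors, ZFP36L2 gave 268.0, 284.2 and 285.2 in FOXA1 transfected and 256.4, 242.9 and 245.9 in control arrays. The groups did not overlap. The difference was 0.17 ± 0.09 (SE; adjusted p = 0.495), and it was -0.01 after median centring. With the median of its 4 probe sets it was 0.53 (limma adjusted p = 0.764), but only 2 of these lay above the median signal. ZFP36L1 gave 2277.0, 2176.5 and 2139.0 against 2406.6, 2440.0 and 1887.0, a difference of -0.02. ZFP36 gave 0.15.

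DUSP13B, the later symbol of DUSP13, gave 15.3, 13.5 and 12.7 in FOXA1 transfected and 1.9, 3.8 and 24.3 in control arrays. The difference was 1.30 ± 0.81 (SE; adjusted p = 0.588), and it lay within the spread of the control arrays.

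Several members are read by more than 1 probe set, and these did not always give the same sign. Of the 87 probe sets, 10 (11.5%) were higher and 7 (8.05%) lower without overlap, in 11 genes, beside 10.8% and 6.42% of all probe sets with 1 symbol. None passed the adjusted threshold. PHLDA1, read by 6 probe sets, gave differences from -0.76 to 0.37. Its second brightest probe set read 428.4, 368.0 and 307.0 in FOXA1 transfected and 571.1, 650.6 and 454.3 in control arrays (-0.60; adjusted p = 0.166), and another, with a mean signal of 89.65, read 82.8, 62.7 and 55.0 against 121.8, 122.8 and 92.8 (-0.76; adjusted p = 0.157). At both, every FOXA1 transfected array was below every control array. At its dimmest probe set the opposite held (0.37). DUSP3, which acts on ERK and JNK, was read at 0.03, -0.39 and 0.64, the last 2 without overlap in opposite directions. ETV1 gave 2 probe sets lower without overlap, at -0.21 and -0.40, both with names that mark probes shared with other sequences. ETV5 gave 1 lower at -0.60, and ETV4 1 higher at 0.43.

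**Figure D3:**
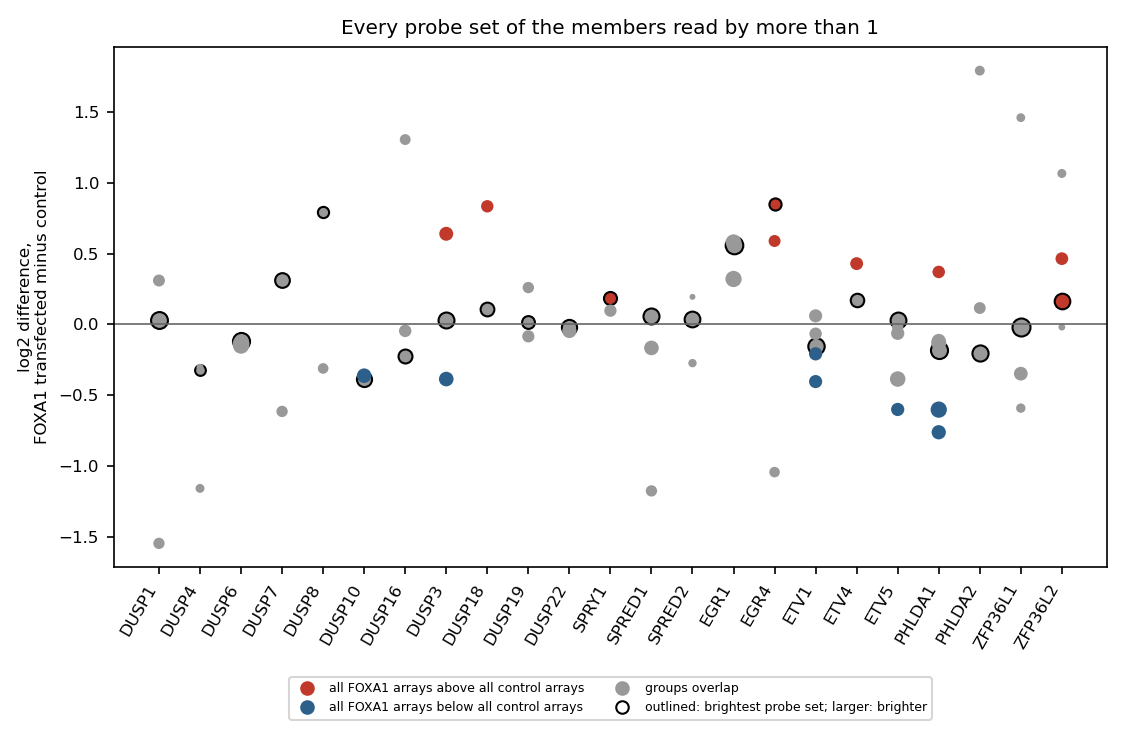
Log2 difference, FOXA1 transfected minus control, at every probe set of the members read by more than 1. Outlined points are the brightest probe sets, larger points are brighter, and colour marks groups without overlap. PHLDA1 runs from -0.76 to 0.37 and DUSP3 holds a coloured point on each side of 0.

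EGR1, PHLDA1 and IER2 varied widely between arrays of one group for genes of their brightness. The SD within groups of EGR1 was 0.615 on the log2 scale, above that of 99.9% of the 848 genes as bright or brighter. PHLDA1 (0.351) lay above 99.7% of 1414 such genes and IER2 (0.314) above 99.6% of 999. At the other end, ZFP36L2 had an SD of 0.0459, above 5.57% of 4378 such genes, DUSP11 one of 0.0517 (9.21%), SPRY1 of 0.0734 (14.5%), SPRED2 of 0.0652 (17.5%) and DUSP14 of 0.0634 (17.6%). These are descriptions of 6 arrays.

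**Figure D4:**
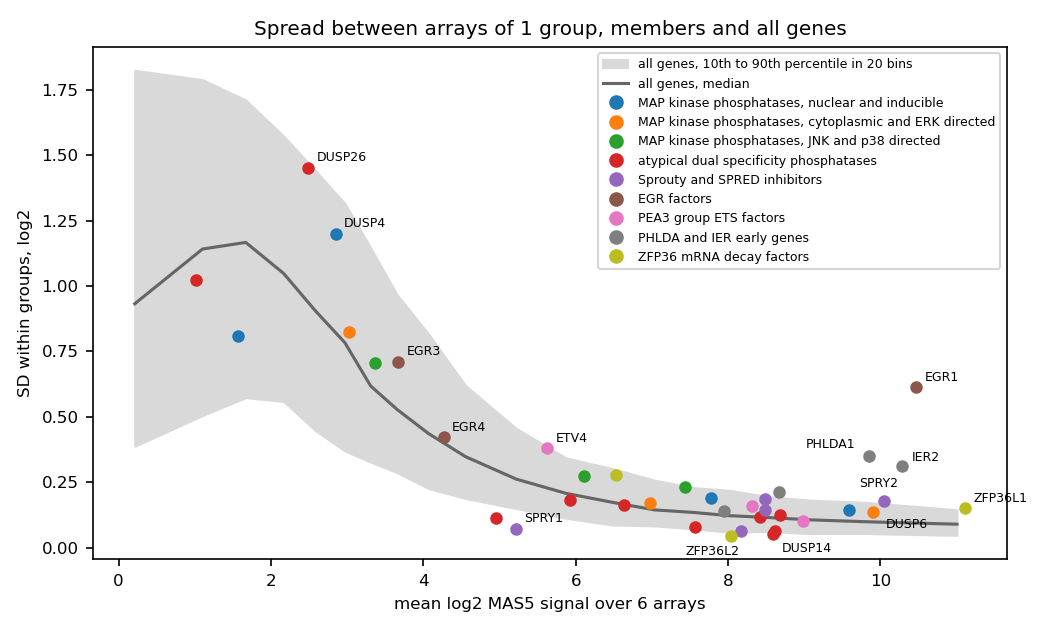
SD within groups (log2) of each member against its mean log2 MAS5 signal over 6 arrays, with the median and the 10th to 90th percentile of all genes in 20 bins of signal. EGR1, PHLDA1 and IER2 lie farthest above the band, and SPRY1, DUSP19, DUSP11 and ZFP36L2 lie below it.

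In the genes outside the members that relay the signal from receptors through RAS to ERK, 17 of the 24 listed were measured, with 9 positive and 8 negative differences (median 0.02). None passed at the adjusted p of 0.05 by limma, and 6 of the 17 did before adjustment (14.6% of all genes). Without overlap, 6 were higher and 4 lower (12.5% and 7.25% of all genes). Of the 17, 1 lay at or under the median signal. Among the 7137 genes with a mean signal above 100, 1728 passed before adjustment. Of these 7137, 14.4% were higher and 14.5% lower without overlap. HRAS, the RAS gene activated in these cells, read 527.9, 540.1 and 526.7 in FOXA1 transfected and 405.3, 407.9 and 425.6 in control arrays, a difference of 0.36 (adjusted p = 0.118). Of the MAP kinases that the phosphatases act on, 8 of 10 were measured, 4 lay above 0 and 4 below, and none passed. MAPK7, or ERK5, was the 1 gene higher without overlap (0.42; adjusted p = 0.351).

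Of the other ERK responsive genes, 34 of 37 were measured. Here 16 differences were positive and 18 negative (median -0.02), and 5 were higher and 5 lower without overlap (12.5% and 7.25% of all genes). None passed the adjusted threshold in limma, and 10 of the 34 did before adjustment (14.6% of all genes). Of the 7137 genes with a mean signal above 100, 1728 did so. ELK1, an ETS factor that ERK phosphorylates, read 377.8, 324.7 and 319.5 in FOXA1 transfected and 234.9, 206.8 and 195.0 in control arrays (0.68; adjusted p = 0.0590). FOSL1, an AP-1 subunit held by sustained ERK activity, read 148.4, 193.0 and 171.7 against 83.4, 74.5 and 117.0 (0.92; adjusted p = 0.0941). IER3 gave -0.48 (adjusted p = 0.0932) and NR4A2 -0.64 (adjusted p = 0.195), while TNFAIP3 gave 0.55 (adjusted p = 0.220). ELK1 and NR4A2 were read by probe sets whose names mark probes shared with other sequences. With the dim probe sets left out ELK1, FOSL1 and IER3 passed, at adjusted p of 0.0249, 0.0376 and 0.0397.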

How the data were processed

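The authors deposited MAS5 signal intensities of 6 HG-U133 Plus 2.0 arrays, scaled per array, on a linear scale. No software version is named, and their own methods describe RMA values and SAM, which were not used here because SAM p-values come from splits of the arrays. From these, 62 array control probe sets were left out, 25 signals listed at 0 were set to 0.1, and log2 values of 54613 probe sets were tested in limma 3.58.1 (R 4.3.3; lmFit, eBayes with trend), two-sided, with Benjamini-Hochberg adjustment and a threshold of 0.05. Of the probe sets, 41091 had 1 symbol in the annotation, 1801 several and 11721 none. Single values were tested by exact permutation, for which 3 against 3 arrays cannot go below 0.1. The number of arrays limits the precision. The members and lists were chosen with earlier results of these data known. Described array by array were the members without overlap, those the study lists, those past the threshold and the brightest of each role group. EGR2, which the study lists, could not be described because it was not read. DUSP7, DUSP13B, other PHLDA1 probe sets, FOS and TNFAIP3 were added after their values were seen. Alternatives were other tests, normalizations, low-value rules, probe set choices, a replicate block and leaving out each array. Promoter windows came from RefSeq (GRCh38.p14).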

Additional observations from a re-analysis of the deposited data

How the results depend on the processing

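The number of probe sets called in all was 32, and it was 1 without the intensity trend, 7 after median centring, 179 with dim probe sets left out, 18 with a pseudocount of 16 and 85 with the replicate block, in which the numbers were treated as pairs, and 4 to 76 when an array was left out (10, 6 and 76 without FOXA1 transfected replicates 1, 2 and 3, and 10, 5 and 4 without control replicates 1, 2 and 3). Deviations of same-numbered arrays from their group means correlated at 0.00218, 0.0381 and 0.0110 over all probe sets, and at 0.0503, 0.182 and 0.111 over those above the median signal, where every array correlated best with that of its own number. Not every pair passed 0.1 and the labels name no pairing, so the numbers were not used as pairs. The replicate block called no member, and EGR1 had an adjusted p of 0.0532 there. Of the members, 1 (DUSP14) was called, as higher, with dim probe sets left out. Members higher without overlap numbered 4, and 2 after quantile normalization, 0 after median centring, 2 with the median of a gene's probe sets and 5 to 8 without an array (7, 5 and 6, then 7, 8 and 5, in the same order), a count that can only hold or rise when an array is left out. Members lower without overlap numbered 0, and 1 after median centring, 3 with the median of probe sets and 1 to 6 without an array (1, 3 and 1, then 3, 1 and 6). No member was called without any 1 array. The members' median was 0.03. It was -0.0568 with the median of probe sets, -0.0134 to 0.0546 without an array, and -0.15 after median centring, which moved that of all genes from 0.07 to -0.11. The other ERK responsive genes called were 0, and 3 with dim probe sets left out and 1 (ELK1) with the replicate block. DUSP1 reversed after median centring (-0.1511) and with the median of probe sets (-0.1304), DUSP12 after median centring (-0.1782) and ZFP36L2 after median centring (-0.0141). The probe sets of DUSP1 other than its brightest were dim, with mean signals of 18.15 and 12.03. Without an array, DUSP1 ran from -0.0684 to 0.0891, DUSP12 from -0.0619 to 0.0946 and ZFP36L1 from -0.1416 to 0.0438, each crossing 0. The cause was not tested.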
